A study of Homo sapiens with 20 samples.

Results

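Nuclear genes for subunits of respiratory complexes I, III and IV and of ATP synthase (the NDUF, UQCR, COX and ATP5 families) were followed in selective translation complex profiling of HEK 293T cells. The members were 60 Ensembl gene IDs listed for these families, and all 60 had a row in each of the 4 deposited count tables, which hold 19029 IDs. No file used here pairs these IDs with gene names, so the family of each member could not be checked or told, and members are given by ID. HEK 293T is an established human embryonic kidney line, and every library, including those made through an HA tag, carries the genotype label WT. Cells had received DMSO, the solvent, or 5 µM i14G1-12 for 1 h before formaldehyde crosslinking, RNase digestion of the lysate and ultracentrifugation. The series sets the compound in the context of inhibiting eIF1 and eIF4G1, and the question was how initiation complexes holding a given factor were spread over mRNAs with and without it. The factors pulled down were eIF1 and eIF2a, both by way of an HA tag, and eIF4G1 and eIF3. The eIF1 and eIF4G1 arms had 3 DMSO and 3 treated libraries each, and the eIF2a and eIF3 arms had 2 and 2. The labels do not say whether replicates were separate cultures, so p-values reflect how much these libraries vary, a variation that may be technical. No input RNA was analysed here. A value here is a proportion of the footprint RNA recovered with a factor, so more mRNA in the cell and more complexes per mRNA cannot be told apart.

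Oxidative phosphorylation moves electrons along the respiratory complexes of the inner mitochondrial membrane, and ATP synthase uses the resulting proton gradient to make ATP. Complex I takes electrons from NADH, complex III passes them from ubiquinol to cytochrome c, and complex IV hands them to oxygen. Most subunits are made by cytosolic ribosomes from nuclear mRNAs and imported, and many of these mRNAs have short 5′ leaders. Some carry a start element called TISU, in which the start codon itself lies within a motif close to the cap. eIF4G1 is the scaffold of the cap-binding complex, and eIF1 guards the choice of start codon. eIF2 brings the initiator tRNA, and eIF3 holds the small ribosomal subunit together with the other factors.

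The TISU letters were looked for in RefSeq promoter windows (GRCh38.p14, 250 bases before to 50 bases after the annotated start), on the sense strand only. The genes were those of the same symbol families, with a list of assembly factors left out. The files do not pair IDs with names, and these windows describe the families and cannot be tied to single members. In the 50 bases after the start, the core ATGGCGGC with AA and any base before it stood in 6 of 68 family genes (8.82%) and in 245 of 15842 protein-coding genes (1.55%). The form with AAG before the core stood in 3 family genes (4.41%) against 1.09% of all. The core alone, which both longer forms contain, stood in 8 family genes (11.8%) against 2.75% of all. A match is a description of these letters and not a mapped start site. The 6 matches are shown, 5′ to 3′ on the sense strand with the motif in capitals, because they place an ATG close to the annotated start in complex I and complex III genes.
UQCRC1 and UQCR10 are complex III genes, and the others belong to complex I.
UQCRC1 (chr3:48609607-48609633, minus strand): ctgcagctggAAGATGGCGGCgtccgt
NDUFS6 (chr5:1801407-1801431, plus strand): agcggcgcAAAATGGCGGCggcgat
NDUFS4 (chr5:53560650-53560676, plus strand): tgcctgcagcAAGATGGCGGCggtgtc
NDUFS3 (chr11:47579079-47579105, plus strand): gcatctgagtAACATGGCGGCggcggc
NDUFA9 (chr12:4649114-4649140, plus strand): attgtgggaaAAGATGGCGGCtgccgc
UQCR10 (chr22:29767386-29767412, plus strand): actgtgaagaAACATGGCGGCcgcgac
In these 6 genes the ATG began between base 12 (NDUFS6) and base 31 (UQCR10) after the annotated start. The windows were 25 to 27 bases long.

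The members were abundant in the recovered RNA for their length. Their counted sequences ran from 317 to 11660 nt with a median of 760.5 nt, against a median of 2957 nt over all 19029 IDs. In DMSO the median member stood at 219 CPM (counts relative to library size, scaled over all libraries by TMM, the trimmed mean method of edgeR) per kilobase of counted sequence, averaged over the 10 DMSO libraries. The median of the 15587 genes with any count in these libraries was 5.22 CPM per kilobase. Of the 60 members, 51 were in the top 10% of these genes and 4 in the top 1%. By CPM without division by length, 46 members were in the top 10%, and the median member stood at 201 CPM. Whether counts of these footprints rise with counted length was not tested.

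ENSG00000127184 led the members with 1656 ± 609 CPM per kilobase (SD over 10 DMSO libraries of 4 immunoprecipitations), at place 46 among all genes. Its DMSO values per library were 2292, 1804 and 2163 CPM per kilobase in eIF1, 2426, 1396 and 1964 in eIF4G1, 1485 and 673 in eIF2a and 1653 and 708 in eIF3. This gene was above the next member, ENSG00000125356, in every DMSO library. ENSG00000125356 (787 ± 370), ENSG00000173660 (727 ± 261), ENSG00000135390 (642 ± 165) and ENSG00000126267 (581 ± 204 CPM per kilobase, SD, n = 10) followed, and neighbours in this order did not differ beyond their spread. At the other end stood ENSG00000139180 with 9.54 ± 2.70, ENSG00000178127 with 13.2 ± 10.97 and ENSG00000023228 with 13.96 ± 6.81 CPM per kilobase. ENSG00000139180 and ENSG00000023228 have long counted sequences (8356 and 11660 nt), so their levels were low per length. ENSG00000178127 is short (857 nt), collected only 104 counts in the 20 libraries and was untested in all 4 immunoprecipitations. The order of the 60 levels was alike in the 4 immunoprecipitations, with Spearman's rho between 0.903 and 0.966 for the 6 pairs, across genes that share libraries and annotation. Each gene was divided by the same length in all 4, which enters these values.

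**Figure D1:**
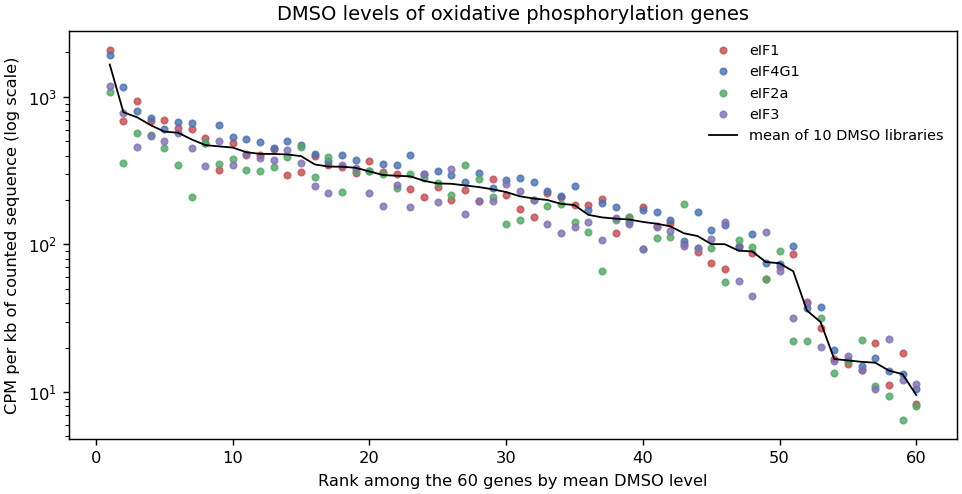
DMSO levels of the 60 genes, ordered by their mean over the 10 DMSO libraries (x axis, rank), in CPM per kilobase of counted sequence on a log scale (y axis); points are means of the DMSO libraries of each immunoprecipitation and the line is the mean of all 10. The leading gene, ENSG00000127184, stands at 1656 CPM per kilobase and the last, ENSG00000139180, at 9.54.

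The 60 genes are 0.315% of the IDs and took between 0.745% and 1.90% of a library's counts. Libraries held 10033 to 1161512 counts, of which 150 to 19090 fell on the members. The eIF1 libraries gave members 1.08%, 1.24% and 1.30% of counts in DMSO and 0.943%, 1.18% and 1.09% after i14G1-12. Means were 1.21% ± 0.110 and 1.07% ± 0.118 (SD, n = 3 each), and the groups overlapped. In eIF4G1 the DMSO libraries gave 1.90%, 1.63% and 1.78% and the treated ones 1.39%, 1.83% and 1.49%, with means of 1.77% ± 0.137 and 1.57% ± 0.231 (SD, n = 3 each). These groups overlapped as well, with the second treated library inside the DMSO range.

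In eIF2a the DMSO libraries gave 1.65% and 1.495% and the treated ones 1.71% and 1.72%, which did not overlap. The lower DMSO value came from a library of 10033 counts with 150 on members, and its 95% Wilson interval was 1.28% to 1.75%, covering both treated values. In eIF3 the DMSO libraries gave 1.66% and 1.15% and the treated ones 1.35% and 0.745%, and the replicates of a treatment lay as far apart as the treatments. Intervals cover counting error only, since reads without molecular identifiers are not independent molecules. No test was made on these sums.

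All 6 eIF1 shares were below all 6 eIF4G1 shares. On average the 10 most abundant genes of a library held 14.7% of counts for eIF1 with DMSO and 18.0% with i14G1-12, against 4.89% to 7.26% in the other groups. Against TMM-scaled library sizes the eIF1 members stood at 1.44% in both treatments, and eIF4G1 members at 1.68% in DMSO and 1.66% after i14G1-12. The eIF1 libraries then ran from 1.33% to 1.59% and the eIF4G1 libraries from 1.45% to 1.95%, so they overlapped.

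**Figure D2:**
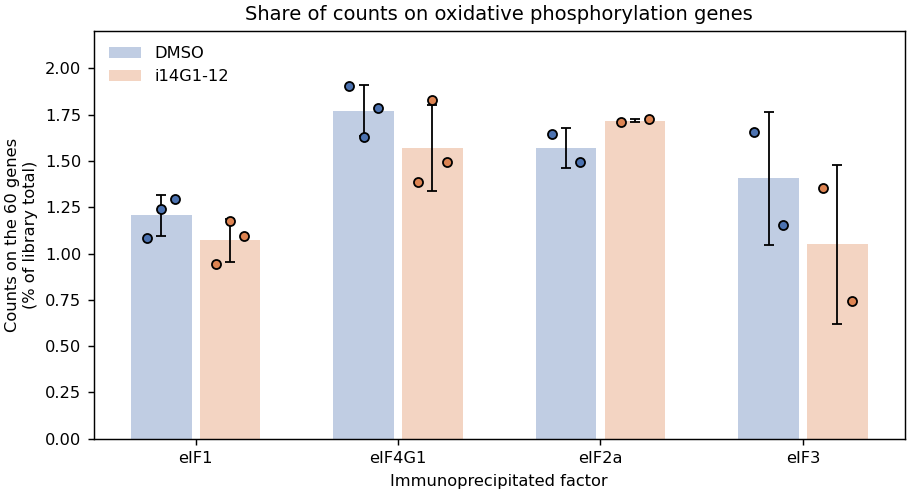
Percent of each library's counts that fell on the 60 genes (y axis) in the 4 immunoprecipitations (x axis), for DMSO and i14G1-12; bars are means, error bars are SD and points are libraries. The highest library is an eIF4G1 DMSO library at 1.90% and the lowest an eIF3 i14G1-12 library at 0.745%.

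Among the DMSO groups the members leaned toward the eIF4G1 immunoprecipitate without any single member passing the test. Each immunoprecipitate was set against the mean of the other 3 in a fit to all 20 libraries, so these 4 contrasts share their libraries, and factor, antibody and tag cannot be told apart. In eIF4G1 52 of the 59 members tested lay above 0 with a median log2 difference of 0.26, while 56.2% of all 9426 genes tested lay above 0 with a median of 0.07. Against TMM-scaled sizes, members held 0.794% of the second eIF2a DMSO library (10033 counts) and 0.949% of the second eIF3 DMSO library (59179 counts). The first DMSO libraries of these arms gave 1.63% and 1.54%, inside the eIF4G1 DMSO range of 1.48% to 1.84%. With 1 library left out, the eIF4G1 median ran from 0.21 to 0.63. Leaving out both shallow libraries together was not tested. No member was called in eIF4G1 (0.117% of all genes called), and 5 had an unadjusted p under 0.05, all higher (5.18% of all genes in either direction). In eIF1 the median was -0.04, in eIF2a -0.04 and in eIF3 -0.17, with 28, 28 and 19 of 59 members above 0. Beside them, all genes had medians of 0.04, -0.13 and 0.04, with 53.4%, 41% and 52.8% above 0. edgeR called 0 members in each of these, where it called 4.08%, 0.053% and 0.0955% of all genes, and 5, 0 and 2 members had an unadjusted p under 0.05 (14.6%, 3.7% and 5.79% of all genes). DESeq2's test was not run on these contrasts, and with its size factors edgeR also called 0 members in each. With total counts as the scale, 3 of 59 members were called in eIF1, all lower (ENSG00000115286, ENSG00000110955 and ENSG00000010256), where 2.19% of all genes were called in either direction, and the median there was -0.43, against -0.33 for all genes.

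ENSG00000164258 gave the largest difference in eIF4G1 and also in eIF1. It stood at 64.9 ± 18.8 CPM in the 3 eIF4G1 DMSO libraries, against a median of 29.4 (0 to 75.2) in the 7 other DMSO libraries, a log2 difference of 0.90 (SE 0.40, edgeR adjusted p = 0.938). In the 3 eIF1 libraries it stood at 57.7 ± 16.7 CPM (log2 difference 0.71, SE 0.38, edgeR adjusted p = 0.402). The ranges of the groups overlapped in both contrasts, and without the first eIF2a DMSO library, which leaves only the shallow one, the differences were 3.11 in eIF4G1 and 2.93 in eIF1. ENSG00000158864 was lowest in eIF4G1 relative to the rest, with 121 ± 39.9 CPM against a mean of 123 (0 to 209) in the other 7 libraries, a log2 difference of -0.17 (SE 0.32, edgeR adjusted p = 0.993), and these ranges also overlapped. The median of the other 7, 103 CPM, was below the eIF4G1 mean. ENSG00000115286 was the lowest in eIF1, where it stood at 51.4 ± 10.5 CPM against a median of 84.6 (0 to 132) in the other 7 (log2 difference -0.90, SE 0.34, edgeR adjusted p = 0.149), with its eIF1 libraries inside the range of the others.

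In eIF3, ENSG00000023228 was the highest relative to the rest, with 171 and 362 CPM against a median of 141 (52.9 to 179) in the other 8 DMSO libraries. ENSG00000184983 was the lowest there, with 68.6 and 27.8 CPM against a median of 104 (71.7 to 147), and its eIF3 libraries lay below all the others. Their log2 differences were 0.74 (SE 0.35, edgeR adjusted p = 0.824) and -0.85 (SE 0.44, edgeR adjusted p = 0.861). In eIF2a, ENSG00000213619 was the highest, at 125 and 212 CPM against a median of 84.5 (51.8 to 160) in the other 8 (log2 difference 0.64, SE 0.47, edgeR adjusted p = 0.999). ENSG00000164919 was the lowest in eIF2a, at 313 CPM in the deeper library and with no count in the shallow one. Its log2 difference was -0.83 (SE 0.42, edgeR adjusted p = 0.999). A count of 0 in the shallow library allows up to 299 CPM (3 counts of 10033) before TMM scaling, which is not the scale of the 313 CPM. On the scale of the 313 CPM, 1 read of the shallow library was 52.9 CPM, as for ENSG00000186010.

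After i14G1-12 no member passed the test in eIF1 complexes, and 37 of the 59 members tested lay below 0 (49.4% of all genes). Their median log2 fold change was -0.14 (quartiles -0.33 and 0.10), while all 8338 genes had a median of 0.00. edgeR called 0 members (0.456% of all genes), and the smallest adjusted p of a member was 0.121. At an unadjusted p under 0.05 there were 12 members (12.4% of all genes), 5 higher (6.52%) and 7 lower (5.86%). The median SE was 0.24 over members and 0.36 over all genes. DESeq2, which called more genes in all than edgeR, called 2 members, both higher. Its share over all genes is not given here. The libraries of the treatments did not overlap in 7 members that were higher (8.73% of all genes) and 10 that were lower (9.58%).

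ENSG00000135940 had the smallest adjusted p in eIF1. It stood at 328, 250 and 315 CPM in DMSO and at 552, 511 and 411 CPM after i14G1-12, so every treated library was above every DMSO library. The log2 fold change was 0.72 (SE 0.21, edgeR adjusted p = 0.121). DESeq2 gave it 0.73 with an adjusted p of 0.0173. ENSG00000164258 had the largest fold change, from 59.7, 35.1 and 45.9 CPM in DMSO to 102, 79.0 and 85.01 CPM, again with no overlap. Its log2 fold change was 0.91 (SE 0.29, edgeR adjusted p = 0.160).

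Among the members lower in eIF1, ENSG00000140990 stood at 114, 233 and 213 CPM in DMSO and at 83.8, 121 and 107 CPM after i14G1-12. DMSO library a fell inside the treated range, while the other DMSO libraries lay above it. The log2 fold change was -0.83 (SE 0.27, edgeR adjusted p = 0.160), and with 1 library left out it ran from -1.09 to -0.63. The value of -1.09 came without DMSO library a, the one inside the treated range, with an edgeR adjusted p of 0.0481. The share of all genes called in that fit is not given here. ENSG00000164405 stood at 184, 230 and 256 CPM in DMSO and at 107, 129 and 172 CPM after i14G1-12, with every treated library below every DMSO library. Its log2 fold change was -0.71 (SE 0.24, edgeR adjusted p = 0.175).

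In eIF4G1 complexes the members lay on both sides of 0. Of 59 members tested, 24 lay above 0 (49.6% of all genes) and 35 below (50.4%), with a median log2 fold change of -0.04 beside -0.01 for all 7203 genes. edgeR called 0 members (0.347% of all genes), with a smallest adjusted p of 0.247, and 8 had an unadjusted p under 0.05 (8.65% of all genes), 3 higher (5.86%) and 5 lower (2.79%). DESeq2, which again called more genes in all than edgeR, called 1 member, and its share over all genes is not given here. The treatments did not overlap in 2 members that were higher (7.4% of all genes) and 5 that were lower (6.87%).

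The member called by DESeq2 was again ENSG00000135940. Its eIF4G1 libraries gave 412, 363 and 307 CPM in DMSO and 728, 863 and 533 CPM after i14G1-12, and all treated libraries lay above the DMSO ones. The log2 fold change was 0.96 (SE 0.29, edgeR adjusted p = 0.247, DESeq2 adjusted p = 0.00893). ENSG00000167792 followed with 203, 228 and 281 CPM in DMSO and 561, 433 and 272 CPM after i14G1-12. The third treated library lay inside the DMSO range, and the log2 fold change was 0.83 (SE 0.32, edgeR adjusted p = 0.430). ENSG00000147684 went the other way, from 179, 155 and 248 CPM to 83.4, 107 and 119 CPM, with no overlap (log2 fold change -0.88, SE 0.33, edgeR adjusted p = 0.422). ENSG00000183648, the shortest member at 317 nt, stood at 232, 115 and 307 CPM in DMSO and at 83.4, 174 and 110 CPM after i14G1-12, and its groups overlapped (log2 fold change -0.82, SE 0.37, edgeR adjusted p = 0.541).

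In eIF2a complexes the members leaned upward, as did all genes. Of 59 tested, 40 lay above 0 (56.6% of all 4719 genes) with a median log2 fold change of 0.15 beside 0.06 for all genes. edgeR called 0 members and 0 genes in all (0%), and 1 member had an unadjusted p under 0.05 (1.84% of all genes), on the higher side (1.25%). DESeq2 called 0 members. The treatments did not overlap in 21 members that were higher (20.4% of all genes) and 3 that were lower (9.37%). The shallow DMSO library had 9 members at 0 and none with 10 or more counts. Without it the members' median was 0.05, and without the deeper DMSO library it was 0.83.

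ENSG00000164258, the member with the largest eIF2a fold change, rested on 8 and 0 counts in DMSO and on 9 and 14 after i14G1-12. These were 37.9 and 0 CPM in DMSO and 75.6 and 73.7 CPM in the treated libraries. Its log2 fold change was 1.05 (SE 0.77, edgeR adjusted p = 1.00). ENSG00000099795 stood at 85.2 and 86.7 CPM in DMSO and 143 and 163 CPM after i14G1-12, and the second DMSO value was a single read (log2 fold change 0.85, SE 0.53, edgeR adjusted p = 1.00). ENSG00000213619 stood at 161 and 347 CPM, the second from only 4 reads, and then at 134 and 105 CPM (log2 fold change -0.60, SE 0.49, edgeR adjusted p = 1.00). Both of these had no overlap between treatments. ENSG00000023228 gave 213 and 86.7 CPM in DMSO and 151 and 169 CPM after i14G1-12, which overlapped. Its fitted log2 fold change was -0.32 (SE 0.45, edgeR adjusted p = 1.00) although the plain mean was higher after treatment, and without the deeper DMSO library the fit gave 0.93.

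The widest shift of the members was in eIF3 complexes, and it depended on single libraries. Of 57 members tested, 43 lay below 0 (48.5% of all 6300 genes) with a median log2 fold change of -0.36 (quartiles -0.92 and -0.04), while all genes had a median of 0.02. edgeR called 0 members (0.0159% of all genes), and 3 had an unadjusted p under 0.05, all lower (0.508% of all genes). DESeq2 called 0 members. The treatments did not overlap in 15 members that were lower (13.5% of all genes) and 1 that was higher (12.5%). The second DMSO library held 59179 counts, and 32 members had 10 or more counts in it. The members' median was 0.12 without the second i14G1-12 library, 0.12 without the first DMSO library, -1.18 without the first i14G1-12 library and -0.67 without the second DMSO library. With the replicate number as a block it was -0.26, with 20 of 57 members at an unadjusted p under 0.05 (12.3% of all genes under the block) and 0 called (0.603% of all genes).

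ENSG00000158864 had the lowest eIF3 fold change. It stood at 218 and 263 CPM in DMSO and at 99.6 and 41.7 CPM after i14G1-12 (log2 fold change -1.74, SE 0.66, edgeR adjusted p = 1.00). ENSG00000115286 stood at 159 and 105 CPM in DMSO and 64.9 and 23.2 CPM after i14G1-12 (log2 fold change -1.63, SE 0.69, edgeR adjusted p = 1.00). In both, the treated libraries lay below the DMSO ones, and the second library of each treatment held few reads of ENSG00000115286, 6 in DMSO and 5 after i14G1-12. ENSG00000140740 went the other way, from 174 and 87.6 CPM to 299 and 190 CPM, with no overlap (log2 fold change 0.80, SE 0.63, edgeR adjusted p = 1.00). ENSG00000173660, among the most abundant members, stood at 408 and 193 CPM and then at 693 and 246 CPM, with overlap (log2 fold change 0.59, SE 0.66, edgeR adjusted p = 1.00).

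Other genes of short counted sequence also lay below 0 in eIF3, except the shortest. Genes outside the list whose counted sequence was at most 1797.75 nt, the upper quartile of the members, showed a median of -0.22 on the log2 scale in eIF3 (1128 genes, 35.5% above 0), and longer genes outside the list had 0.07 (5115 genes, 55.3% above 0). Within the list, the 42 members up to that length had a median of -0.40 with 7 above 0, and the 15 longer members had -0.07 with 7 above 0. The part of length in the result was not tested. In the other immunoprecipitations the short genes outside the list had medians of 0.02 (1609 genes, eIF1), 0.01 (1478 genes, eIF4G1) and 0.09 (1037 genes, eIF2a). With the limit set at the members' median length these became 0.14, 0.20 and 0.12, and -0.01 in eIF3.

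**Figure D3:**
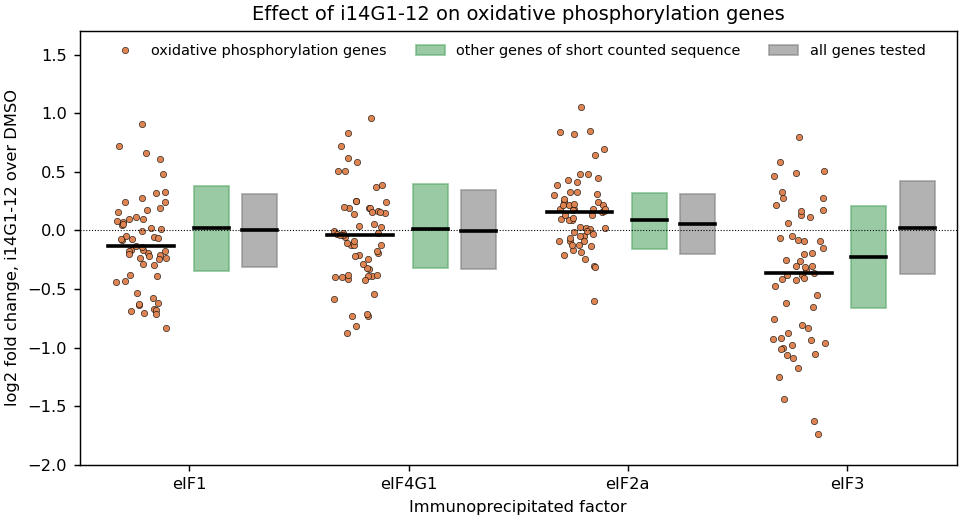
Fitted log2 fold changes of i14G1-12 over DMSO (y axis) in the 4 immunoprecipitations (x axis). Points are the tested genes of the list, boxes span the quartiles of other genes with a counted sequence of at most 1797.75 nt and of all genes tested, and black lines are medians, which for the list are -0.14, -0.04, 0.15 and -0.36.

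The effects in the 4 immunoprecipitations were then set side by side. In eIF1, eIF4G1 and eIF3 together, 22 of 57 members lay below 0 in each (38.6%, against 22.4% of all genes) and 8 above 0 in each (14.04%, against 20.4%). With eIF2a added, 9 members lay below 0 in all (15.8%, against 11.96% of all genes) and 6 above 0 in all (10.5%, against 12.1%), both near the share of all genes. The contrast of the effects in eIF1 and eIF4G1, the pair named by the series, had a median of -0.10 over the 59 members, from -0.79 to 1.05, and 37 lay below 0 (51.7% of all genes). edgeR called 0 members in this contrast (0.0318% of all genes), and 0 had an unadjusted p under 0.05 (3.13% of all genes). ENSG00000164258 gave the largest difference, 1.05 (SE 0.56, edgeR adjusted p = 1.00). A test for any difference among the 4 effects called 0 members (0.0212% of all genes), and 4 had an unadjusted p under 0.05 (1.8% of all genes). DESeq2's test was not run on these contrasts.

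ENSG00000135940 and ENSG00000167792 were higher in fitted value in all 4 immunoprecipitations. ENSG00000167792 stood at 218, 164 and 205 CPM in eIF1 DMSO and at 312, 256 and 253 CPM after i14G1-12, with no overlap (log2 fold change 0.48, SE 0.22, edgeR adjusted p = 0.358). In eIF2a its values were 345 and 347 CPM in DMSO and 437 and 384 CPM after i14G1-12, also without overlap (log2 fold change 0.24, SE 0.37, edgeR adjusted p = 1.00). The 347 CPM rested on only 4 reads of the shallow library. In eIF3 they were 318 and 210 CPM and then 411 and 218 CPM, with overlap. The eIF3 fold changes of both genes were small beside their SEs, at 0.28 (SE 0.63) for ENSG00000135940 and 0.22 (SE 0.62) for ENSG00000167792, and turned negative without the first i14G1-12 library.

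ENSG00000139180 and ENSG00000140990 were lower in fitted value in all 4. ENSG00000139180 stood at 56.9, 59.5 and 54.1 CPM in eIF1 DMSO and at 25.6, 41.9 and 35.6 CPM after i14G1-12, with no overlap (log2 fold change -0.70, SE 0.33, edgeR adjusted p = 0.385). In eIF3 it stood at 78.5 and 158 CPM and then at 47.6 and 64.9 CPM (log2 fold change -0.92, SE 0.68, edgeR adjusted p = 1.00), and its eIF4G1 and eIF2a libraries overlapped. The log2 fold changes of ENSG00000139180 were -0.39 (SE 0.39) in eIF4G1 and -0.09 (SE 0.53) in eIF2a. The eIF2a value was small beside its SE and ran from -0.30 to 0.20 with 1 library left out. ENSG00000140990 had no overlap in eIF4G1, where 271, 270 and 323 CPM in DMSO stood against 125, 253 and 209 CPM (log2 fold change -0.54, SE 0.31, edgeR adjusted p = 0.693). It had none in eIF3 either, with 295 and 280 CPM against 152 and 60.3 CPM (log2 fold change -1.44, SE 0.65, edgeR adjusted p = 1.00). Its eIF2a value of -0.12 (SE 0.38) changed sign under 3 other fits that keep all libraries. With 1 library left out it ran from -0.25 to 1.71.

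**Figure D4:**
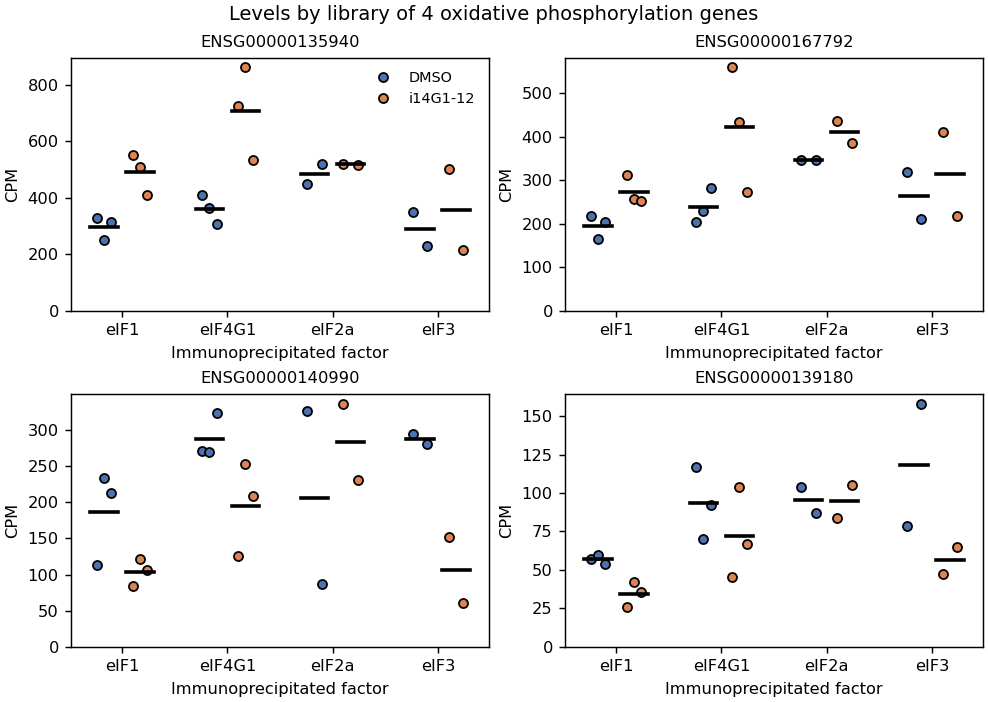
CPM by library (y axis, from 0) for 4 genes with the same sign of effect in all 4 immunoprecipitations (x axis); points are libraries, horizontal bars are means. ENSG00000135940 and ENSG00000167792 were higher and ENSG00000140990 and ENSG00000139180 lower in fitted value after i14G1-12, and none had an edgeR adjusted p under 0.05.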

How the data were processed

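Raw gene-level read counts were deposited by the authors for selective 48S footprint libraries, in 4 tables. Per the submitters' processing notes, cutadapt, Trimmomatic, Bowtie, HISAT2 and featureCounts were used with build hg38, and versions are not given. The handling of reads fitting several genes is unknown here, so values of genes with near-identical copies are uncertain. The eIF1 columns carry no replicate numbers of the labels and are called a, b and c.

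Each treatment effect was fitted over all genes of an immunoprecipitation with edgeR 4.0.16 in R 4.3.3 (filterByExpr with a minimum count of 10, TMM, glmQLFTest) and adjusted by Benjamini-Hochberg over all genes tested at 0.05. Contrasts between immunoprecipitations used 1 fit to all 20 libraries. CPM within a treatment comparison were scaled over that immunoprecipitation, and DMSO levels over all 20 libraries. Alternatives were the DESeq2 1.42.0 test and size factors, total counts as the scale, no filter or a minimum count of 30, 1 fit to all libraries, the replicate block and leaving out each library. The edgeR fits of the treatment effects were also run on simulated counts with known changes. The outcome is not given here, and no result above rests on it.

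Members and lists were chosen with earlier results of these data known. Named genes were, by a written rule, the largest and smallest effects with a mean CPM of at least 20, the highest and lowest levels, and genes of 1 sign in all 4 effects without overlap in at least 2. At most 2 per direction are given, and 1 per direction for the DMSO contrasts. None of the 19029 IDs could be paired with a symbol (0 matched), so sub-complexes, other subunits, assembly factors and mitochondrially encoded genes were not analysed here.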

Additional observations from a re-analysis of the deposited data

Results flagged for a closer look

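For 3 of the 15 genes checked, every treated library lay above the DMSO libraries in one immunoprecipitation and below them in another. The 15 had been named by their effects in these data. Members not checked, such as ENSG00000109390, ENSG00000267855, ENSG00000145494 and ENSG00000110717, showed the same. How many of all genes did so was not counted. Taken singly, treated libraries were higher without overlap in eIF2a in 20.4% of all genes. They were lower without overlap in 9.58% (eIF1), 6.87% (eIF4G1) and 13.5% (eIF3). Log2 fold changes of ENSG00000115286 were 2.45 higher in eIF2a than in eIF3. Those of ENSG00000147684 were 1.26 higher in eIF2a than in eIF4G1 and 1.63 higher than in eIF3. Those of ENSG00000183648 were 1.39 higher in eIF2a than in eIF1 and 1.75 higher than in eIF3. These pairwise differences were not tested. edgeR's test for any difference among the 4 effects gave adjusted p = 1.00 for each (unadjusted p of 0.0171, 0.0404 and 0.0813). All 5 differences involve eIF2a, whose second DMSO library held 10033 counts, and its part in them was not tested.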

How the results depend on the processing

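Under alternatives that keep all libraries, 14 values for the list left limits not given here. The other 104 include 0 calls staying 0, so they do not show stability. DESeq2's test called 2 members in eIF1 (ENSG00000135940 and ENSG00000159199) and 1 in eIF4G1 (ENSG00000135940). It called 174 and 97 genes in all against 38 and 25, no filter on low counts gave 129 and 68, and a minimum count of 30 gave 70 and 40, with 0 members in these last settings. With total counts only, the members' medians were -0.25 in eIF1 and -0.21 in eIF4G1, and 3 members were called in the eIF1 contrast of DMSO groups. Leaving the 10 most abundant genes out of the total gave shares of 1.30% (eIF1 i14G1-12), 1.41% (eIF1 DMSO) and 1.82% (eIF2a i14G1-12). TMM-scaled sizes gave 1.44%, 1.44% and 1.69% for these, and 1.21% for eIF2a DMSO. The short genes outside the list had medians of 0.14 (eIF1) and 0.20 (eIF4G1) with the limit at the members' median length. The eIF2a effect on ENSG00000140990 was -0.12 and became 0.22 with DESeq2, 0.26 with the replicate block and 0.030 in 1 fit to all libraries. The cause was not tested for any of these.

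The replicate block left 0 members called in eIF4G1, eIF2a and eIF3, with medians of -0.03, 0.25 and -0.26, and raised the calls over all genes in eIF3 from 1 to 38. Same-numbered libraries were not treated as paired: the correlations of their deviations were 0.01, -0.09 and -0.13 in eIF4G1, -0.01 in eIF2a and, from only 2 numbers, 0.46 in eIF3. No block could be fitted in eIF1, whose columns carry no replicate numbers of the labels.

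Leaving out 1 library at a time gave 0 to 1 members called in eIF1 (1 without DMSO library a) and 0 in the other effects. The share of all genes called in these fits is not given here. The members' median ran from 0.053 to 0.83 in eIF2a and from -1.18 to 0.12 in eIF3. In the DMSO contrasts it ran from -0.97 to 0.21 in eIF2a, from -0.79 to 0.087 in eIF3, from -0.16 to 0.30 in eIF1, where its sign turned, and from 0.21 to 0.63 in eIF4G1. The values 0.83 and -0.97 came without the first eIF2a DMSO library, -0.79 without the first eIF3 DMSO library and -1.18 without the first eIF3 i14G1-12 library. The median effect ran from -0.15 to -0.07 in eIF1 and from -0.19 to 0.03 in eIF4G1, where it was above 0 without the third i14G1-12 library. Signs turned for ENSG00000023228 (-0.42 to 0.93), ENSG00000139180 (-0.30 to 0.20) and ENSG00000140990 (-0.25 to 1.71) in eIF2a. In eIF3 they turned for ENSG00000135940 (-0.45 to 0.78), ENSG00000167792 (-0.30 to 0.61) and ENSG00000173660 (-0.33 to 1.29). In the DMSO contrasts they turned for ENSG00000115286 in eIF1 (-1.01 to 1.81) and ENSG00000158864 in eIF4G1 (-0.37 to 2.89). Without a change of sign, effects moved by over 1.5 times in eIF3 for ENSG00000115286 (-2.54 to -1.07), ENSG00000140990 (-2.23 to -0.91), ENSG00000139180 (-1.47 to -0.48) and ENSG00000140740 (0.45 to 1.48). They did so in eIF2a for ENSG00000213619 (-1.51 to -0.47) and ENSG00000135940 (0.038 to 0.19), and in eIF4G1 for ENSG00000139180 (-0.71 to -0.17), ENSG00000140990 (-0.75 to -0.32) and ENSG00000183648 (-1.14 to -0.53). In the DMSO contrasts they did so for ENSG00000164258 in eIF1 (0.46 to 2.93) and eIF4G1 (0.67 to 3.11). The same held in eIF2a for ENSG00000213619 (0.51 to 1.16) and ENSG00000164919 (-10.6 to -0.41). In eIF3 it held for ENSG00000023228 (0.21 to 1.26) and ENSG00000184983 (-1.97 to -0.64). The shallow eIF2a DMSO library had no member with 10 or more counts, which limits every eIF2a value.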
